A study of Homo sapiens with 2 samples.

Results

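The genes described here are 33 genes of glucose breakdown and of the cellular response to low oxygen, measured in C4-2 cells, a castration-resistant subline of the LNCaP human prostate cancer line. All 33 were chosen by name, with earlier results of these data known, and every probe set that the array annotation gives to exactly 1 of them was taken. This found 71 probe sets for 31 of the 33 genes, out of 41091 probe sets for 19775 genes on the array, plus 3 Affymetrix control probe sets for GAPDH. CA9 and SLC16A3 had no such probe set and were not analysed here. The members were read by role: 16 glycolytic enzymes, 3 transporters, the PFKFB3 and PFKFB4 regulators, the pyruvate dehydrogenase kinases PDK1 and PDK3, and 10 other hypoxia-induced genes.

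Cells had been transfected by RNAiMax with miR-99a, or with the control siRNA si-GL2, and total RNA was taken at 48 h in both cases. Cells of both groups grew in RPMI medium with fetal bovine serum, and the labels name no hypoxia treatment. Each of the 2 groups is 1 Affymetrix array of 1 cell line, so the differences have no replicate error and carry no p-value. A difference below is always miR-99a minus si-GL2 in log2(signal + 16). Genes that differed by at least 1.5-fold, which is 0.58 on this scale, were counted as higher or lower, which is a cut-off by size and tests nothing. A gene was read by its brightest probe set, and a probe set was called above the expression limit when its mean level reached the median of all probe sets, a signal of 47.2.

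Both arrays had nearly the same scale. Over all 54675 probe sets the median signal was 47.8 on the miR-99a array and 47.4 on the si-GL2 array, and the hybridisation spikes differed by -0.12 to 0.06. Of the 7 prostate luminal marker genes analysed, all were above the limit, among them KLK3 at 6180 with miR-99a against 6783 with si-GL2 and HOXB13 at 2411 with miR-99a against 2341 with si-GL2. Of 15 markers of leukocytes, stroma, endothelium and basal epithelium analysed, 5 were above it. COL1A1 was highest at 230 with miR-99a against 233 with si-GL2, then PECAM1 at 194 with miR-99a against 167 with si-GL2. DCN, CD3E and COL1A2 lay nearer the limit, all higher with miR-99a. The other 10, among them PTPRC, CDH5 and KRT5, lay below it on both arrays, and the part of other cell types in the differences was not tested.

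Glycolysis turns glucose into pyruvate in the cytosol. Glucose enters through SLC2A transporters and is trapped by hexokinase, phosphofructokinase commits it to breakdown, and lactate dehydrogenase turns pyruvate into lactate. The PFKFB enzymes set the level of fructose 2,6-bisphosphate, the strongest activator of phosphofructokinase. The PDK kinases restrain the use of pyruvate inside the mitochondrion by inactivating pyruvate dehydrogenase. Many of these genes are induced by hypoxia-inducible factor, whose alpha subunit HIF1A is destroyed in the presence of oxygen after hydroxylation by the EGLN enzymes, and which binds a short core sequence in promoters. HIF1A is controlled mostly at the level of its protein, which an mRNA array does not measure. Prostate cancer cells use both lactate production and mitochondrial respiration.

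The transfected microRNA is shown first because its seed, bases 2 to 8 in capitals, is the part that pairs with target mRNAs. The labels do not say which strand was used, and the name miR-99a without an arm usually means the 5′ strand. In RefSeq on GRCh38.p14, miR-99a-5p lies at chr21:16539101-16539122 on the plus strand. It shares its seed with miR-100-5p, at chr11:122152275-122152296 on the minus strand, and with miR-99b-5p, at chr19:51692618-51692639 on the plus strand. Transcript sequences were not used here, so the members were not searched for seed matches.
miR-99a-5p: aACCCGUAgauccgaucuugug
miR-100-5p: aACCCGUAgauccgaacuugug
miR-99b-5p: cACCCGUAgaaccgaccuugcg

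Promoters are shown for the 4 genes with the highest differences by brightest probe set, PFKFB3, PFKFB4, SLC2A1 and PDK1, and for PDK3, which went the other way from PDK1. Each window runs from 250 bases before to 50 bases after a RefSeq gene start on GRCh38.p14 and is printed in the direction of the gene. Capitals mark the hypoxia-inducible factor core ACGTG or GCGTG on either strand, where CACGT and CACGC are the reverse complements. CACGTG holds ACGTG on both strands and was counted as 2 matches. The PFKFB3 window is at chr10:6202682-6202981 (plus strand), the PFKFB4 window at chr3:48556754-48557053 (minus), the SLC2A1 window at chr1:42958819-42959118 (minus), the PDK1 window at chr2:172555840-172556139 (plus) and the PDK3 window at chrX:24465036-24465335 (plus). PFKFB3 and PDK1 each have another, upstream window, with 1 GCGTG match for PFKFB3 and no match for PDK1. For both genes the window with more ACGTG matches is the one printed.
PFKFB3: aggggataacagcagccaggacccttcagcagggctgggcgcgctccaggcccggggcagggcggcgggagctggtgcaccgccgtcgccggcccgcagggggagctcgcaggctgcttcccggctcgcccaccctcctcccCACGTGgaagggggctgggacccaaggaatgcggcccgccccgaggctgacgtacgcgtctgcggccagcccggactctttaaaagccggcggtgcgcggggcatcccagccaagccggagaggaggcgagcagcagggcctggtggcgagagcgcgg
PFKFB4: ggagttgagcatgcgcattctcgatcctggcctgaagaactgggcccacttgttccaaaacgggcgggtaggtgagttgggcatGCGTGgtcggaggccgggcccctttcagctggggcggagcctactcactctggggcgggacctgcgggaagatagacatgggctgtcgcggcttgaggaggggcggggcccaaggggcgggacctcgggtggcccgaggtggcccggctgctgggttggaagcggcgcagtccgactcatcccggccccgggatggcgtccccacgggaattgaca
SLC2A1: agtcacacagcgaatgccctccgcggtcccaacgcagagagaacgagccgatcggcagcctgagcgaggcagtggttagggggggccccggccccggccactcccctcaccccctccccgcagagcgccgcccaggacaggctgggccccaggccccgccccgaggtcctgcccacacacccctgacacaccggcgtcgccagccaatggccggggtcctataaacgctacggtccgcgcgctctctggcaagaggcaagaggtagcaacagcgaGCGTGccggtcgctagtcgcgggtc
PDK1: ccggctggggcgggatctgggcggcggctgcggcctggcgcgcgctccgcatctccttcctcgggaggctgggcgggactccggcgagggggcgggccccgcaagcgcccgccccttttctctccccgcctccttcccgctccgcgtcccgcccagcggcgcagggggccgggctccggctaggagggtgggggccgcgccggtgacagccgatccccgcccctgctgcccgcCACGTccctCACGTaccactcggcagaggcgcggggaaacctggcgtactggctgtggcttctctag
PDK3: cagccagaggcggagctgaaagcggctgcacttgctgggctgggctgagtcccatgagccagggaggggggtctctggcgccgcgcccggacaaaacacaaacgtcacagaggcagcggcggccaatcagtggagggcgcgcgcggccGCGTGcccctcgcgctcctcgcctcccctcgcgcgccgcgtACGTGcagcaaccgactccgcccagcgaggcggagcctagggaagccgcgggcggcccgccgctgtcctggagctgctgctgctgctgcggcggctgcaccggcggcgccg

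The cores lay at different places. Positions count from the start on which each printed window is built. For PFKFB3, PFKFB4 and PDK1 that start lies downstream of the outermost start of the gene. PFKFB3 had CACGTG starting at -108, PDK1 had CACGT at -17 and -8, and PDK3 had GCGTG at -102 and ACGTG at -61. PFKFB4 and SLC2A1 held only the GCGTG form, at -166 and at 26. Across the table, 59 windows belonged to 31 of the 33 members, with CA9 and SLC16A3 among them and VEGFA and SLC2A3 not. Several overlapped, and a gene had up to 7. ACGTG was in 22 of the windows (37.3%), against 21.4% of all 35116 windows, and either form was in 39 (66.1%), against 48.4%. Counted by gene, 18 of the 31 had ACGTG in at least 1 window (58.1%), against 24.9% of all 27305 genes, and 28 had either form (90.3%), against 52.4%. The members had 1.90 windows per gene, against 1.29 over all genes. The windows of PGAM1, EGLN3 and P4HA2 held neither form, while GAPDH, whose signal was nearly equal on both arrays, held CACGTG. A match is a run of letters and not evidence of binding, and base composition was not matched. The members were chosen by name as genes of glycolysis and the hypoxia response, so a higher share than over all genes tests nothing.

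Read by brightest probe sets, PFKFB3 and PFKFB4, regulators of glycolytic rate, gave the largest differences among the members, both in the direction of more signal with miR-99a. A total of 2 of the 30 members above the limit were at least 1.5-fold higher, PFKFB3 and PFKFB4, where 1.21% of all 12218 genes above the limit were. A total of 0 members were 1.5-fold lower, where 2.90% of all genes were. The median difference over the 30 members was 0.14 and 24 of them lay above 0 (80%), beside a median of -0.03 over all genes, of which 43.7% lay above 0. The expression limit does not depend on the direction of a difference, and ADM was the 1 measured member that did not reach it. Because earlier results of these data were known when the members were chosen, a share set beside that over all genes tests nothing.

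**Figure D1:**
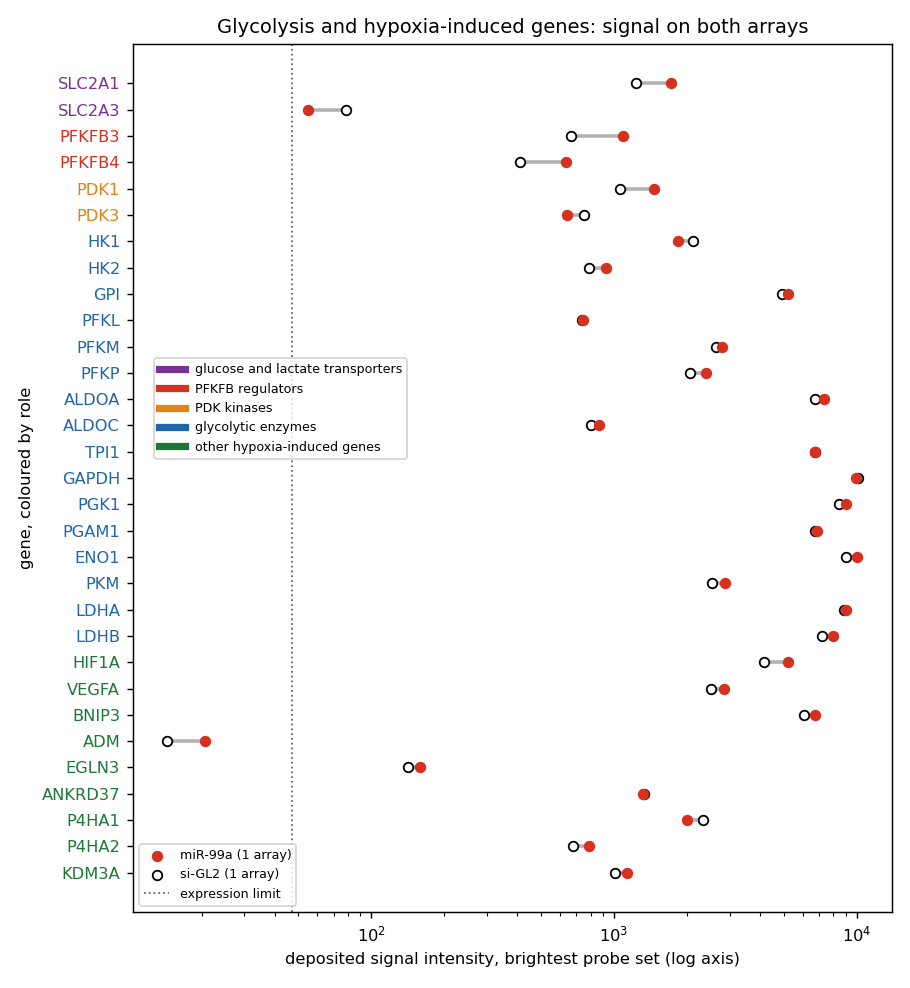
Deposited signal intensity (horizontal log axis) of the brightest probe set of each of the 31 measured members, with genes down the page by role. Filled points are the miR-99a array and open points the si-GL2 array, 1 array each, and the dotted line is the expression limit. The widest gaps among genes above the limit are those of PFKFB3, PFKFB4, SLC2A1, SLC2A3 and PDK1, and only SLC2A3, PDK3, HK1, GAPDH, ANKRD37 and P4HA1 of these genes have the miR-99a point to the left.

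PFKFB3 and PFKFB4 are bifunctional enzymes that make and degrade fructose 2,6-bisphosphate, PFKFB3 with the stronger kinase activity. PFKFB3 had a signal of 1091 with miR-99a and 663 with si-GL2, a ratio of 1.64 and a difference of 0.70. PFKFB4 had 632 with miR-99a and 408 with si-GL2, a ratio of 1.55 and a difference of 0.61. Both thus had the higher signal on the miR-99a array, at ranks 71 and 125 from the top of 12218 genes. PFKFB3 rested on 1 probe set. PFKFB4 had another below the limit, at 40.1 with miR-99a and 39.1 with si-GL2. As a mean over both, PFKFB4 was at 0.32, short of 1.5-fold. PFKFB2, a related enzyme that is not a member, went the other way, at 207 with miR-99a against 252 with si-GL2 (-0.27), with its 4 probe sets between -0.60 and -0.09. PFKFB1, the liver and muscle form, was below the limit.

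SLC2A1 had the higher signal with miR-99a, and SLC2A3 rested on dim probe sets that disagreed. SLC2A1, the basal glucose transporter GLUT1, had 1720 with miR-99a and 1237 with si-GL2, a difference of 0.47, rank 287 from the top. Its other probe set was below the limit at 33.4 with miR-99a and 25.1 with si-GL2. SLC2A3, the high-affinity transporter GLUT3, had 54.9 with miR-99a and 78.7 with si-GL2 by its brightest probe set (-0.42). Its next probe set gave 68.2 with miR-99a against 53.5 with si-GL2 (0.28), and its dimmest, below the limit, 30.4 with miR-99a against 22.9 with si-GL2 (0.25). SLC2A3 therefore had no direction that its own probe sets shared, and the mean over all of them was 0.04. A pair of further probe sets, which the annotation gives to both SLC2A3 and SLC2A14, was at -0.11 and 0.19.

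PDK1 and PDK3 lay on opposite sides of 0, and all probe sets of each gene lay on its side. PDK1, an isoform known as a hypoxia-inducible factor target, had 1457 with miR-99a and 1054 with si-GL2 by its brightest probe set (0.46). Its other probe sets gave 399 with miR-99a against 246 with si-GL2 (0.67) and 68.1 with miR-99a against 40.3 with si-GL2 (0.58), and the dimmer of these was just short of 1.5-fold. PDK1 was thus higher with miR-99a by all 3 probe sets. PDK3 had 639 with miR-99a and 755 with si-GL2 by its brightest probe set (-0.23). Its other 4 probe sets lay between -0.44 and -0.12, so PDK3 was lower by all 5. PDK2 differed by 0.00 at 143 with miR-99a against 142 with si-GL2, and PDK4, the isoform linked to fasting and fat use, was below the limit.

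**Figure D2:**
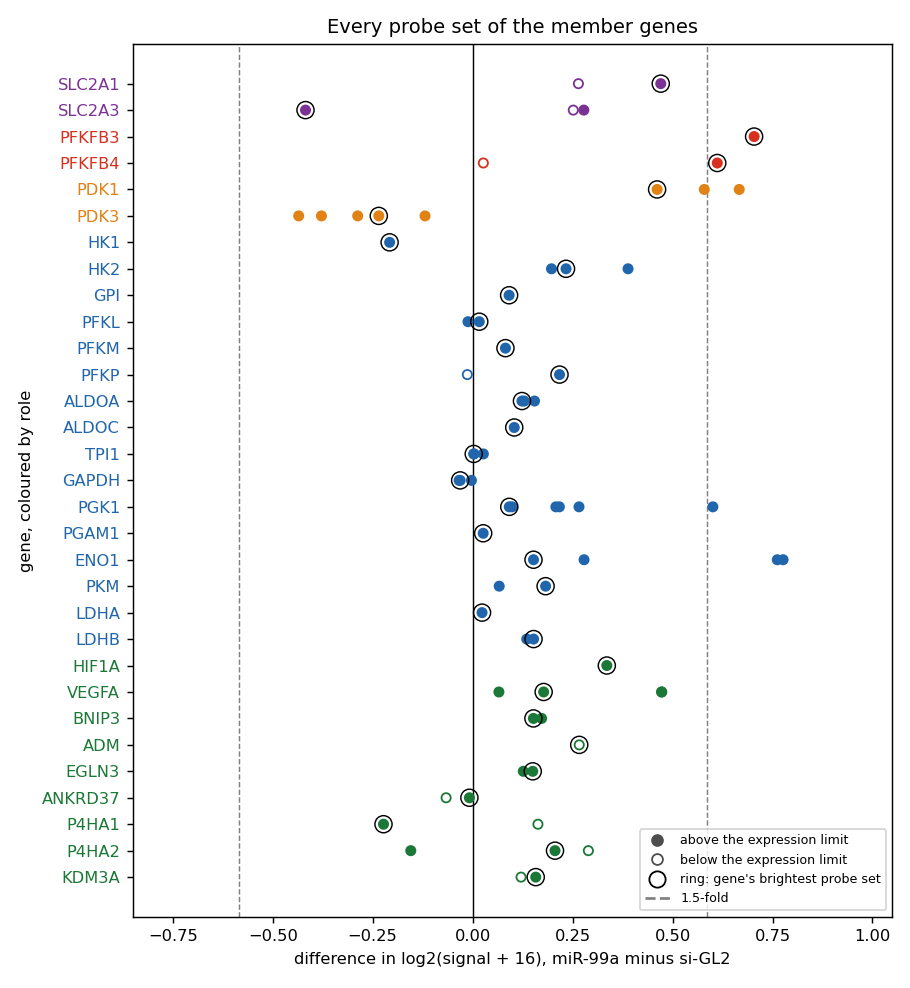
Difference in log2(signal + 16), miR-99a minus si-GL2 (horizontal axis), for each of the 71 probe sets of the member genes, with genes down the page by role. Filled points are above the expression limit, rings mark each gene's brightest probe set and dashed lines mark 1.5-fold. All 3 probe sets of PDK1 lie right of 0 and all 5 of PDK3 left of it, while those of ENO1 spread from 0.15 to 0.78.

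The 16 glycolytic enzymes were all above the limit and lay close together, with differences from -0.21 to 0.23 and a median of 0.09. A total of 14 lay above 0 (87.5%) and 0 passed 1.5-fold in either direction. Over all genes above the limit, 43.7% lay above 0, 1.21% were 1.5-fold higher and 2.90% lower. A count of 0 among 16 genes is close to those last shares. HK1 and HK2, which catalyse the same first step, lay on either side of 0. HK1, the housekeeping hexokinase, had 1832 with miR-99a and 2118 with si-GL2 (-0.21). HK2, the inducible hexokinase, had 930 with miR-99a and 789 with si-GL2 (0.23), and its 3 probe sets lay between 0.20 and 0.39. HK1 was measured by 1 probe set, so its lower signal had no other probe set beside it.

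Among the phosphofructokinase subunits, which form the committed step, PFKP, the platelet type, stood highest at 2401 with miR-99a against 2063 with si-GL2 (0.22). PFKM, the muscle type, was 2793 with miR-99a against 2637 with si-GL2 (0.08) and PFKL, the liver type, was 748 with miR-99a against 739 with si-GL2 (0.02). GPI, the isomerase between hexokinase and phosphofructokinase, was 5225 with miR-99a against 4903 with si-GL2 (0.09). Aldolase A, ALDOA, was 7321 with miR-99a against 6720 with si-GL2 by its brightest of 3 probe sets, which differed by between 0.12 and 0.15, and ALDOC, the brain-type aldolase, was 869 with miR-99a against 807 with si-GL2 (0.10). Of these 6 genes, only PFKP differed by more than 0.20, the SD between expressed probe sets of the same gene over 5842 genes.

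The enzymes of the lower pathway included members with nearly equal signal on both arrays and members whose reading moved with the probe set. GAPDH, which makes the NADH of the pathway, differed by between -0.03 and -0.00 by its 3 probe sets, the brightest at 9888 with miR-99a and 10105 with si-GL2. TPI1, the triose isomerase, was 6748 with miR-99a against 6735 with si-GL2 by its brightest probe set, and its 3 probe sets differed by between 0.00 and 0.03. PGAM1, the mutase, was 6850 with miR-99a against 6726 with si-GL2 (0.03), and LDHA, the lactate-forming dehydrogenase subunit that hypoxia induces, was 9039 with miR-99a against 8892 with si-GL2 (0.02). GAPDH, TPI1, PGAM1 and LDHA thus differed by no more than the hybridisation spikes did. LDHB, the subunit that favours pyruvate, had 8006 with miR-99a and 7202 with si-GL2 (0.15), with its other probe set at 0.14. PKM, pyruvate kinase, was 2869 with miR-99a against 2526 with si-GL2 (0.18), and its dimmer probe set was at 0.07.

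PGK1 and ENO1 depended on which probe set was read. PGK1, the first ATP-forming kinase of the pathway, was 9034 with miR-99a against 8477 with si-GL2 by its brightest probe set (0.09). Its other 5 lay between 0.10 and 0.60, and the one at 0.60 gave 495 with miR-99a against 321 with si-GL2. ENO1, enolase, was 10013 with miR-99a against 9009 with si-GL2 by its brightest probe set (0.15), and 6885 with miR-99a against 5673 with si-GL2 (0.28) by the next. Its remaining probe sets gave 781 with miR-99a against 449 with si-GL2 (0.78) and 103 with miR-99a against 54.2 with si-GL2 (0.76), both past 1.5-fold. All 6 probe sets of PGK1 and all 4 of ENO1 thus had the higher signal with miR-99a. As means over their probe sets, PGK1 was at 0.25 and ENO1 at 0.49. Glycolytic genes such as GAPDH, PGK1 and ENO1 have processed pseudogene copies in the human genome, and a probe set can read more than its own gene.

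The spread of differences was narrower at high signal. Among all named probe sets with a mean signal of 3000 or more, the SD of the difference was 0.13 and 1 of 957 was 1.5-fold higher (0.10%), against an SD of 0.27 and 1.27% for signals of 300 to 1000. Of the 16 glycolytic enzymes, 9 were read by a brightest probe set in that top range, including GAPDH, PGK1, ENO1 and LDHA, while PFKFB3, PFKFB4, PDK1 and SLC2A1 were not. The brightest signals on the arrays were 13495 with miR-99a and 13399 with si-GL2. The 7 enzymes below 3000 had a median of 0.10 and the 9 above it a median of 0.09. The part of brightness in the small differences of the enzymes was not tested. At the level of probe sets, 6 of the 62 member probe sets above the limit were 1.5-fold higher (9.68%, where 1.53% of 22401 were), those of PFKFB3, PFKFB4, PDK1 and PGK1 and a pair of ENO1, and 0 were 1.5-fold lower (2.76%). The same share was 7.69% for the further hypoxia-induced genes described last (4 of 52 probe sets), 7.14% for the pentose phosphate pathway (1 of 14) and 0 for the 6 other lists of related genes. Probe sets of the same gene are not independent readings, and the members and lists were chosen with earlier results of these data known.

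**Figure D3:**
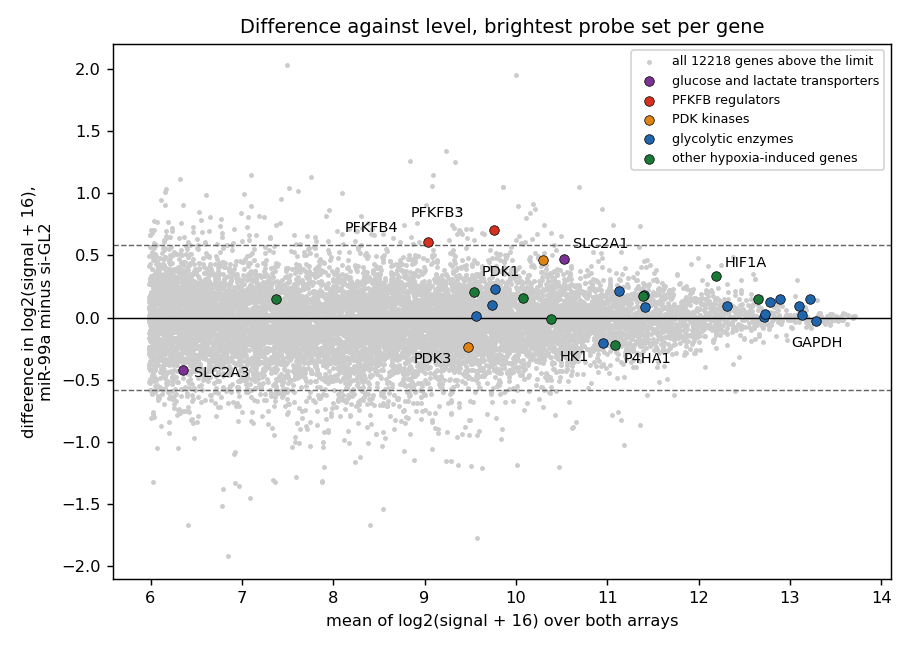
Difference in log2(signal + 16), miR-99a minus si-GL2 (vertical axis), against the mean of log2(signal + 16) over both arrays (horizontal axis), by brightest probe set. Grey points are all 12218 genes above the limit, coloured points are the 30 members among them and dashed lines mark 1.5-fold. The grey cloud narrows at high level, where GAPDH and other glycolytic enzymes lie, and PFKFB3 and PFKFB4 lie above the upper line.

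Of the 10 other hypoxia-induced genes, 9 were measured and 8 were above the limit. Their median difference was 0.15, 6 lay above 0 (75%), and 0 passed 1.5-fold in either direction. Over all genes, 43.7% lay above 0, 1.21% were 1.5-fold higher and 2.90% lower, so 0 among 8 genes is close to those last shares. HIF1A itself, the oxygen-regulated factor subunit, stood highest, at 5224 with miR-99a against 4136 with si-GL2, a ratio of 1.26 and a difference of 0.34 by its 1 probe set. VEGFA, the angiogenic growth factor, was 2837 with miR-99a against 2507 with si-GL2 (0.18) by the brightest of 4 probe sets, and the other 3 lay between 0.07 and 0.47. BNIP3, a mitophagy receptor, was 6743 with miR-99a against 6067 with si-GL2 (0.15) with its other probe set at 0.17. These 3 genes had the higher signal with miR-99a by every probe set.

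Targets that act on proteins or chromatin were mixed. KDM3A, a histone demethylase, was 1129 with miR-99a and 1010 with si-GL2 (0.16). EGLN3, a hydroxylase that feeds back on hypoxia-inducible factor, was 159 with miR-99a against 142 with si-GL2 (0.15) and differed by 0.13 in another probe set. ANKRD37, an ankyrin-repeat protein, was 1318 with miR-99a against 1326 with si-GL2 (-0.01). The collagen prolyl hydroxylase subunits went apart, with P4HA1 at 1991 with miR-99a against 2326 with si-GL2 (-0.22) and P4HA2 at 785 with miR-99a against 678 with si-GL2 (0.21). P4HA2 had a dim probe set at 65.4 with miR-99a against 74.6 with si-GL2 (-0.15), so its direction was not shared by both of its probe sets above the limit. ADM, the vasodilator peptide adrenomedullin, was below the limit at 20.6 with miR-99a against 14.5 with si-GL2.

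The probe sets of a gene mostly pointed the same way. Of 16 members with at least 2 probe sets above the limit, 11 had all of them above 0 and 2 (PDK3 and GAPDH) had all below 0. The 3 divided members were SLC2A3, PFKL and P4HA2. How often the probe sets of other genes agree in direction was not counted, so this agreement is not a trait shown for the members alone. Among the 6 measured transporters, PFKFB enzymes and PDK kinases, the median difference was 0.47, with 4 above 0 and SLC2A3 and PDK3 below. By role, the medians were 0.03 for the 2 transporters, 0.66 for the 2 PFKFB enzymes and 0.11 for the 2 PDK kinases. The median was 0.09 over the 16 enzymes and 0.15 over the 8 other hypoxia-induced genes. These medians describe 2 arrays, and no difference between the groups was tested.

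**Figure D4:**
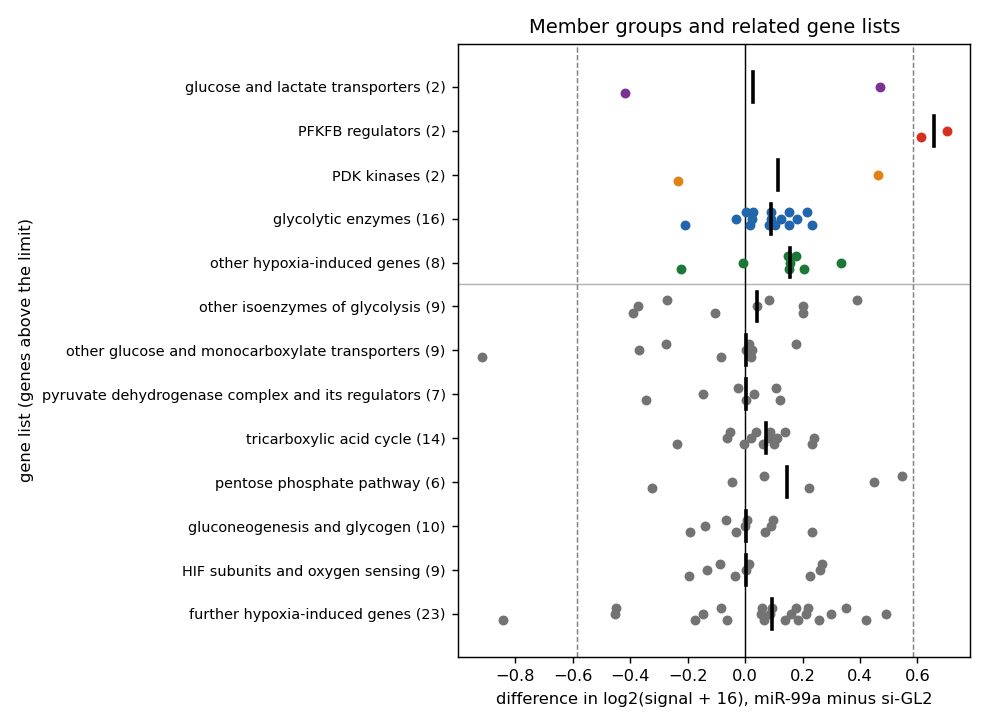
Difference in log2(signal + 16), miR-99a minus si-GL2 (horizontal axis), for the member groups (upper rows, coloured) and 8 lists of related genes (lower rows, grey), with 1 point per gene above the limit, the number of such genes in brackets, black bars at the median and dashed lines at 1.5-fold. By brightest probe set, PFKFB3 and PFKFB4 are the only points right of the upper 1.5-fold line, and the only points left of the lower one are SLC2A12 and TMEM45A.

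Related genes outside the 33 had medians nearer to 0 in most lists. Over all genes above the limit, 1.21% were 1.5-fold higher and 2.90% lower, so counts of 0 or 1 in these short lists say little. The 9 other glycolytic isoenzymes above the limit had a median of 0.04, between BPGM, the mutase of 2,3-bisphosphoglycerate (733 with miR-99a against 966 with si-GL2, -0.39), then muscle enolase ENO3 (-0.37), and PGK2 (0.39) and LDHC (0.20), which are known as testis forms. The 9 other glucose and monocarboxylate transporters had a median of 0.00. SLC2A12, the transporter GLUT12, was the 1 gene there past 1.5-fold, at 158 with miR-99a against 312 with si-GL2 (-0.92), with its other probe set at -0.27. The pyruvate transporter SLC16A7 followed at -0.37 and was lower by all 3 of its probe sets above the limit, 1 of them past 1.5-fold (-0.68), while BSG, the chaperone of lactate transporters, was at 0.18 and MPC2 at 0.02. The other transporters therefore had no common direction.

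Downstream of pyruvate, the 7 genes listed with the pyruvate dehydrogenase complex and its regulators had a median of 0.00. This list also held PC, pyruvate carboxylase, which is not part of that complex. PDHX was lowest (2313 with miR-99a against 2944 with si-GL2, -0.35), then PC (-0.15), and PDHA1 (0.12) and DLD (0.11) were highest. Probe sets above the limit lay between -0.13 and 0.14 for PDHA1 and between -0.13 and 0.11 for DLD. The 14 tricarboxylic acid cycle genes had a median of 0.07, between SUCLA2 (-0.24) and SDHC (-0.06) at the low end and OGDH (0.24) and IDH3A (0.23) at the high end. Probe sets of OGDH above the limit lay between -0.16 and 0.46, and those of IDH3A between -0.06 and 0.23. By brightest probe sets, none of the 7 or the 14 passed 1.5-fold. The 7 probe sets of SDHC lay between -0.76 and 0.32, and the lowest gave 207 with miR-99a against 361 with si-GL2. The pentose phosphate pathway, which branches off after hexokinase, had 6 genes above the limit with a median of 0.14 and 0 past 1.5-fold by brightest probe sets, although a dimmer probe set of TKT was at 0.61. RPIA, the ribose isomerase, was 646 with miR-99a against 438 with si-GL2 (0.55), and PGD was at 0.45 by its brightest probe set but at -0.18 by another. PGLS (-0.32) and TALDO1 (-0.05) were lowest. The 10 genes of gluconeogenesis and glycogen had a median of 0.00, from UGP2 (-0.19) and PYGL (-0.14) to PCK2 (0.10) and glycogen synthase GYS1 (0.23).

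In the oxygen-sensing machinery around HIF1A, the 9 genes above the limit had a median of 0.00 and 0 past 1.5-fold, with CUL2 (-0.20) and ELOB (-0.13), parts of the VHL ubiquitin ligase, lowest. HIF1AN, the asparagine hydroxylase that blocks coactivator binding, was highest at 193 with miR-99a against 157 with si-GL2 (0.27), and the coactivator EP300 followed (0.26). EPAS1, which encodes the alternative alpha subunit HIF-2 alpha, was below the limit on both arrays, at 30.9 with miR-99a against 35.4 with si-GL2. A further 23 hypoxia-induced genes had a median of 0.09 with 16 above 0 (69.6%, where 43.7% of all genes were). TFRC, the transferrin receptor, was 6295 with miR-99a against 4474 with si-GL2 (0.49) by its brightest probe set, and 2 dimmer ones passed 1.5-fold, at 3837 with miR-99a against 2417 with si-GL2 and 928 with miR-99a against 456 with si-GL2. DDIT4, an inhibitor of mTOR complex 1, was 5586 with miR-99a against 4171 with si-GL2 (0.42). TMEM45A (87.8 with miR-99a against 170.3 with si-GL2, -0.84) was the 1 gene of this list past 1.5-fold by its brightest probe set, and VLDLR (-0.45) followed at the low end. At the level of probe sets, 4 of 52 were at least 1.5-fold higher (7.69%, where 1.53% of all named probe sets above the limit were). These were the pair of TFRC and 1 each of ERO1A (0.92) and CA12 (0.75). A single probe set, that of TMEM45A, was 1.5-fold lower, where 2.76% of all were. These lists were written with earlier results of the same arrays known.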

How the data were processed

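Per the labels' protocols, Trizol RNA was labelled with biotin and hybridised as Affymetrix prescribes. The authors deposited 1 linear signal intensity per probe set and array. How probes were summarised and arrays scaled is not given in the sources used here. Genes came from the platform annotation. It gives 1801 probe sets several genes, and these stayed out. Intensities were transformed to log2(signal + 16). Array medians differed by 0.01, under the limit of 0.1 set for centring, so no scaling was applied. Of each gene, the probe set with the highest mean level was used, Affymetrix controls left out. The number of arrays, 1 per group, limits the precision, and no test was possible. The code that applies the size rule was run on simulated data with 2-fold changes planted in bright genes. That run checked recovery of the planted changes and gives no error rate for these arrays. All 33 members are named, with the 2 highest and 2 lowest expressed genes of each related list, plus genes named after their values were seen (PFKFB1, PFKFB2, PDK2, PDK4, EPAS1, KLK3, HOXB13, COL1A1, COL1A2, DCN, PECAM1, CD3E, PTPRC, CDH5, KRT5, ERO1A, CA12, TKT). The members and lists were chosen with earlier results of these data known. Alternatives were pseudocounts of 1 and 64, median centring, quantile normalization, means over probe sets, leaving out _x_ and _s_ probe sets, other expression limits and a 2-fold rule. The 5′ to 3′ log2 ratio of the GAPDH control probe sets was 0.12 after miR-99a and 0.06 after si-GL2. The software was Python 3.11.15 with pandas 2.3.3, numpy 2.4.6 and matplotlib 3.10.9.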

Additional observations from a re-analysis of the deposited data

How the results depend on the processing

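The count of members at least 1.5-fold higher, 2 by brightest probe sets, was 1 (PFKFB3) with a pseudocount of 64, 1 (PFKFB3) with means over all probe sets and 0 under a 2-fold rule. Without _x_ and _s_ probe sets, which left 15 members, it was 2, ENO1 and PFKFB4, because PFKFB3 has no other probe set and ENO1 was then read by a dimmer one. The count of members 1.5-fold lower was 0 under all 10 alternatives. The median of the glycolytic enzymes was 0.20 without _x_ and _s_ probe sets, which left 8 of them. That of the transporters, PFKFB enzymes and PDK kinases was 0.34 with means over all probe sets and 0.52 with means over those above the limit. All other medians moved by less than 0.05, the SD of the hybridisation spikes. Of 30 members, 28 kept their sign in all 9 alternatives that gave them a value. The exceptions were TPI1 under median centring and quantile normalization, and SLC2A3 at 0.04 as a mean over its probe sets. SLC2A3, EGLN3 and ADM were dim. With means over probe sets above the limit, ENO1 was at 0.49, PGK1 at 0.25 and P4HA2 at 0.03. No paired analysis was possible because each group has 1 array.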
